A study of Mus musculus with 8 samples.

Results

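The genes described here are 35 mouse genes of the melanocyte lineage and of pigment formation, found by their symbols among the 55414 genes of the expression table. They were kept in 3 groups: 6 regulators and receptors, 14 pigment enzymes and melanosome proteins, and 15 genes of melanosome trafficking. Their expression comes from RNA-seq of B16F10 cells, a pigmented mouse melanoma line, in 8 libraries that make up 4 groups of 2. Wild-type cells (WT) and *Ppif* knockout cells (CypD KO) were kept at 21% oxygen for 24 h; cells with the empty pcDNA vector (Control) and cells labelled as overexpressing PPIF (labelled CypD OE, here the OE-labelled libraries) were kept at 1% oxygen for 24 h. *Ppif* encodes cyclophilin D (CypD), a mitochondrial protein that promotes opening of the permeability transition pore. Per the study's methods, the knockout was made with Cas9 and puromycin selection, and the vector lines were stable transfectants selected in G418; resistant clones were picked, and how many clones make up each line is not given in the sources used here. The comparisons set CypD KO against WT at 21% oxygen and the OE-labelled libraries against Control at 1% oxygen. Each also compares separately derived lines, so an effect of CypD cannot be told apart from those of selection or clone. Control also differed from WT in both oxygen and vector, which cannot be told apart.

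Melanocytes make melanin in melanosomes, organelles related to lysosomes. The transcription factor MITF, together with SOX10 and PAX3, maintains the lineage and activates the genes of the pigment enzymes tyrosinase, TYRP1 and DCT, of the fibril protein PMEL and of melanosomal channels and transporters. The BLOC and AP-3 complexes with RAB32 and RAB38 deliver these cargoes to the maturing organelle, and RAB27A, melanophilin and myosin Va hold finished melanosomes on actin. In melanoma, the MITF program is known as a mark of the differentiated, pigmented state.

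Values are TPM as deposited, an abundance corrected for transcript length and scaled to a fixed sum per library. They hold no read count, so the depth behind a value is not known from them; between 17942 and 19692 genes were above 0 per library. Differences were tested on log2(TPM + 1) with limma over the 13526 genes that reached 1 TPM in 2 or more libraries, with p-values adjusted over all of them by the Benjamini-Hochberg procedure and a threshold of 0.05. On this scale a change at low TPM appears smaller than its fold. Exact permutation of 2 against 2 libraries gives no two-sided p under 0.333, so the test rests on a spread pooled over groups and genes. It is not stated whether the 2 libraries of a group came from separate cultures, so the p-values may measure only technical spread. *Ppif*, the targeted gene, had 50.7 and 49.99 TPM in the WT pair against 10.4 and 12.1 TPM in the CypD KO pair. The Control pair had 44.6 and 42.3 TPM and the OE-labelled pair 50.3 and 49.3 TPM. This log2 difference of 0.19 (limma adjusted p = 0.0794) did not pass the threshold. In the RNA values, every direction drawn from these libraries thus rests on their label. The study's methods report CypD overexpression in the resistant clones by western blot, a measure of protein that these libraries do not hold.

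The libraries carried the pigmented identity of the B16F10 line. *Tyrp1* was between 6290 and 10632 TPM and ranked between 5 and 11 among all genes of a library, and *Dct*, *Pmel*, *Mlana* and *Gpnmb* were above 1000 TPM in every library. The 35 genes together took 2.06% of all TPM in each WT library, 1.93% in each CypD KO library, 2.72% and 2.78% in Control, and 1.84% in each OE-labelled library. The Control libraries thus held the largest share and the OE-labelled libraries the smallest, with no overlap between groups. These 5 abundant genes weigh most in the share, and in CypD KO it joins a higher *Gpnmb* with lower *Tyrp1*, *Dct*, *Pmel* and *Mlana*. Of the 35 genes, 34 passed the filter on low TPM. The exception, *Ednrb*, the receptor for endothelin, was listed at 0 in 6 libraries, at 0.02 TPM in 1 WT library and at 0.04 TPM in 1 CypD KO library.

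**Figure D1:**
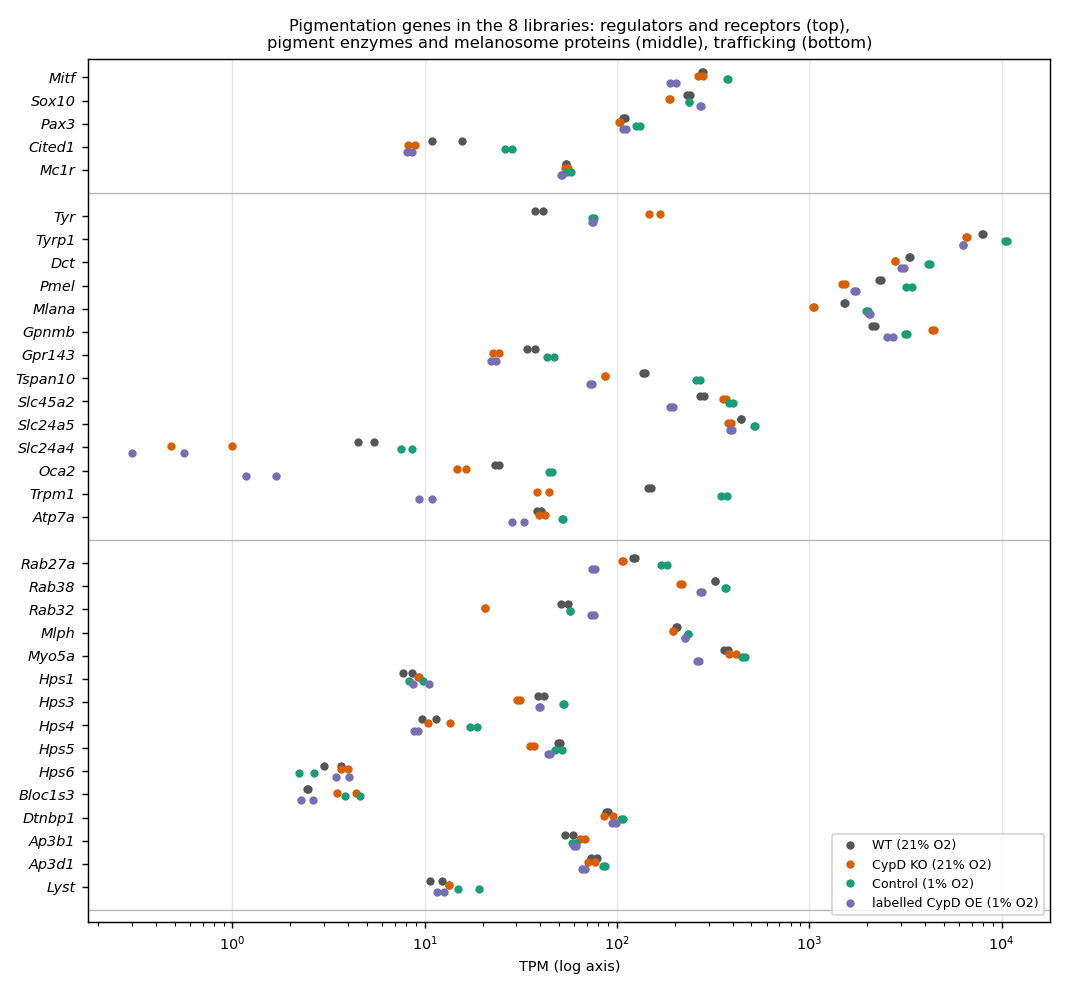
TPM of the 34 tested genes in each of the 8 libraries on a log axis, with 2 points per group and a colour per group. The range runs from 0.3 TPM for *Slc24a4* to 10632 TPM for *Tyrp1*, and *Trpm1*, *Oca2*, *Slc24a4* and *Tyr* show the widest gaps between groups.

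Many pigment genes carry in their promoter the M-box TCATGTG, an extended E-box known as a binding sequence of MITF. Promoters from RefSeq, reaching from 250 bases before to 50 bases after a transcription start (build GRCm38.p6), were matched by symbol for 28 of the 35 genes; *Pax3*, *Sox10*, *Rab38*, *Gpr143*, *Pmel*, *Mlana* and *Slc45a2* were not matched. TCATGTG, searched on both strands, was in a promoter of 8 of the 28 genes (28.6%), and in 4.31% of the 27025 genes of the table. The shorter CATGTG, which TCATGTG contains, was found in 10 of the 28 genes (35.7%) and in 15.9% of all genes. CACGTG, the other E-box that MITF binds, was found in 9 of the 28 (32.1%) and in 8.09% of all genes. ACGTG, the core of the hypoxia response element and part of CACGTG, was found in 15 of the 28 (53.6%) and in 21.8% of all genes. *Trpm1* and *Hps1*, each with 2 promoters in the table, held all 4 motifs when both of their promoters were counted.

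For 6 genes whose levels are described below, 1 M-box each is shown in 30 bases, 5′ to 3′ on the strand of the gene, with TCATGTG or its reverse complement CACATGA in capitals and the first motif base counted from the RefSeq start. Each promoter was matched to 1 place in GRCm39, and the windows of *Tyr* (chr7:87142724-87142753, minus strand), *Trpm1* (chr7:63803430-63803459, plus strand) and *Dct* (chr14:118289791-118289820, minus strand) lay outside the annotated gene, upstream of it. Those of *Tyrp1* (chr4:80752392-80752421, plus strand), *Tspan10* (chr11:120333425-120333454, plus strand) and *Slc24a5* (chr2:124910023-124910052, plus strand) lay within the annotated gene, those of *Tyrp1* and *Slc24a5* overlapping an exon and that of *Tspan10* in an intron (GENCODE M39). The promoter of *Dct* holds another at -232 (chr14:118289872-118289901), which is not shown.
Tyr, motif from -22: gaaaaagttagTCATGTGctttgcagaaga
Tyrp1, motif from -47: tggggagggagTCATGTGctgcctagtagt
Dct, motif from -151: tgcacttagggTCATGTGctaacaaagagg
Trpm1, motif from -142: ccaaatcctcaTCATGTGcccaccccaaac
Tspan10, motif from -21: atgtgactcctCACATGAtaccactgtgat
Slc24a5, motif from -13: aggagactgctCACATGAttcagcataagt

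At 21% oxygen the CypD KO libraries had lower levels of most pigment enzyme and melanosome genes than WT, a higher level of *Tyr* and no called difference of *Mitf*. In all, 17 of the 34 tested genes (50%) were lower in CypD KO, where 18.4% of all genes tested were lower, and 5 (14.7%) were higher, where 30.1% of all genes were. In either direction 48.4% of all genes passed. The median log2 difference was -0.13 over the 34 genes and 0.09 over all genes tested. The count of higher genes was 3 without WT replicate 1. In bulk RNA, fewer cells of a kind and less RNA per cell cannot be told apart.

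Of the 5 tested regulators and receptors, 2 were lower in CypD KO and 3 did not pass. *Mitf* (ENSMUSG00000035158), on chromosome 6 from 97783950 to 97998323 (GRCm39), had 277 and 281 TPM in the WT pair against 280 and 265 TPM in the CypD KO pair, with overlapping libraries, a log2 difference of -0.03 (standard error 0.04, limma adjusted p = 0.593). After a rescaling by median-of-ratios size factors its difference was -0.14 (limma adjusted p = 0.0204), since this rescaling moved the differences of the 34 genes between CypD KO and WT by -0.06 to -0.11. The call for *Mitf* thus depended on the scaling. *Sox10*, which encodes an activator of *Mitf*, fell from 231 and 239 TPM to 187 and 188 TPM, a log2 difference of -0.32 (standard error 0.03, limma adjusted p = 1.66e-04). *Pax3*, the gene of another such activator, had 107 and 110 TPM in the WT pair against 103 and 103 TPM in the CypD KO pair, and its difference of -0.07 did not pass (limma adjusted p = 0.137; 0.00934 after the rescaling). *Cited1*, a transcriptional cofactor gene, had 15.6 and 10.9 TPM in the WT pair against 8.94 and 8.18 TPM in the CypD KO pair, a log2 difference of -0.56 (limma adjusted p = 0.0225). That call was lost without WT replicate 1 (difference -0.32, limma adjusted p = 0.0615), without CypD KO replicate 1 (0.0563) and without CypD KO replicate 2 (0.0992). *Mc1r*, the receptor for melanocyte-stimulating hormone, stayed between 54.0 and 55.7 TPM in these 4 libraries.

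Of the 14 pigment enzyme and melanosome genes, 10 were lower in CypD KO, 3 were higher and 1, *Atp7a*, did not pass. The gene that rose most was *Tyr*. *Tyr* (ENSMUSG00000004651; chromosome 7, 87073979 to 87142720), the gene of tyrosinase, the rate-limiting enzyme of melanin synthesis, had 37.4 and 41.3 TPM in the WT pair against 167 and 147 TPM in the CypD KO pair. The CypD KO libraries were both far above the WT libraries, a 3.99-fold ratio of means and a log2 difference of 1.97 (standard error 0.07, limma adjusted p = 4.02e-06). The genes of the related enzymes went the other way. *Tyrp1* fell from 7949 and 7997 TPM to 6601 and 6522 TPM (log2 difference -0.28, limma adjusted p = 5.30e-05), and *Dct* from 3346 and 3287 TPM to 2777 and 2775 TPM (-0.26, limma adjusted p = 2.30e-04). *Gpnmb*, a glycoprotein gene of melanosomes and lysosomes, rose from 2122 and 2210 TPM to 4331 and 4464 TPM (1.02, limma adjusted p = 5.31e-06). *Slc45a2*, which encodes a transporter that sets melanosome pH, rose from 285 and 270 TPM to 371 and 356 TPM (0.39, limma adjusted p = 4.15e-04).

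The 2 genes with the lowest differences in CypD KO encode an ion channel and an ion exchanger. *Trpm1* (ENSMUSG00000030523; chromosome 7, 63803583 to 63922019), a cation channel gene and a known MITF target, fell from 150 and 145 TPM to 44.3 and 38.4 TPM, so that WT was 3.57-fold higher (log2 difference -1.81, standard error 0.09, limma adjusted p = 1.56e-05). *Slc24a4*, a sodium, calcium and potassium exchanger gene, fell from 5.46 and 4.5 TPM to 0.99 and 0.48 TPM (-1.80, standard error 0.20, limma adjusted p = 4.00e-04). For both genes every CypD KO library was below every WT library, though the share of all genes without overlap was not computed. *Oca2*, the gene of a melanosomal anion channel, fell from 23.2 and 24.4 TPM to 16.4 and 14.7 TPM (-0.58, limma adjusted p = 0.00554). *Tspan10*, *Pmel*, *Gpr143*, *Mlana* and *Slc24a5* had log2 differences of -0.67, -0.64, -0.59, -0.54 and -0.19, with limma adjusted p-values from 7.92e-06 to 0.00186. *Pmel* builds the fibrils on which melanin is laid down, and its mean fell to 0.642 of that in WT, from 2342 ± 46.1 TPM to 1504 ± 36.6 TPM (SD, n = 2).

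Among the 15 trafficking genes, 5 were lower and 2 were higher in CypD KO, and 8 did not pass. *Rab32* (ENSMUSG00000019832; chromosome 10, 10419907 to 10434013), whose product routes enzymes to melanosomes, changed most, from 55.5 and 51.2 TPM to 20.7 and 20.5 TPM (log2 difference -1.33, standard error 0.05, limma adjusted p = 5.31e-06). Its paralog *Rab38* fell from 324 and 325 TPM to 219 and 211 TPM (-0.59, limma adjusted p = 1.38e-05). *Hps5* and *Hps3*, which encode BLOC-2 subunits, were lower with log2 differences of -0.46 and -0.37, and *Rab27a* with one of -0.20. *Mlph* and *Myo5a*, the partners of *Rab27a*, did not pass (differences of -0.06 and 0.11). After the median-of-ratios rescaling *Mlph* was lower (-0.17, limma adjusted p = 0.00173), and without CypD KO replicate 2 *Myo5a* was higher (0.18, limma adjusted p = 0.0296). The BLOC-3 genes *Hps1* and *Hps4*, the third BLOC-2 gene *Hps6*, the BLOC-1 gene *Dtnbp1*, the AP-3 gene *Ap3d1* and *Lyst* did not pass either, with differences from -0.04 for *Ap3d1* to 0.21 for *Lyst*. *Ap3d1* was lower after the rescaling (-0.15, limma adjusted p = 0.0396). *Bloc1s3*, which encodes a BLOC-1 subunit and lay between 2.27 and 4.61 TPM in the 8 libraries, was higher (0.51). So was *Ap3b1*, which encodes an AP-3 subunit and lay between 53.9 and 68.2 TPM (0.23). *Bloc1s3* lost its call with no filter on low TPM (limma adjusted p = 0.0746), and *Ap3b1* after the median-of-ratios rescaling (0.12, limma adjusted p = 0.163). *Bloc1s3* also lost it without either WT replicate or CypD KO replicate 1, and *Ap3b1* without WT replicate 1 or CypD KO replicate 2. With 1 library left out, their differences ranged from 0.38 to 0.65 and from 0.17 to 0.29.

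**Figure D2:**
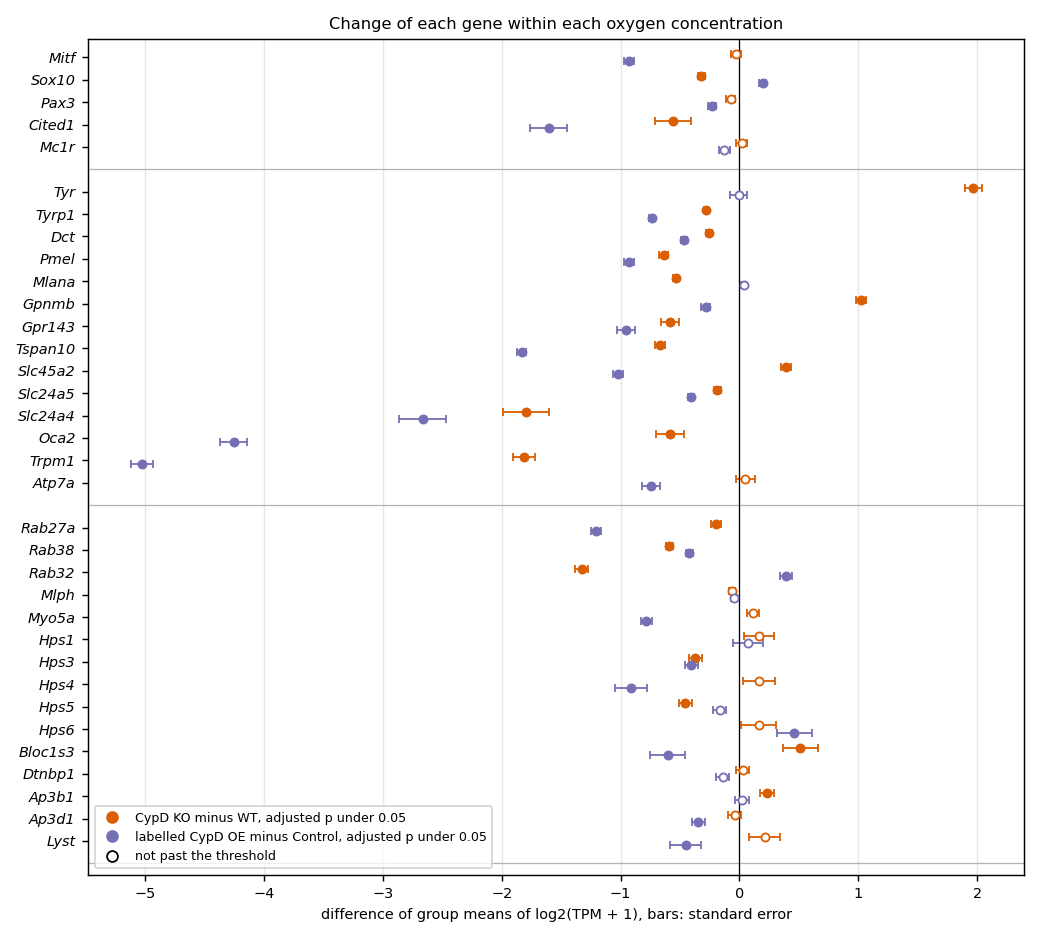
Difference of group means of log2(TPM + 1) with its standard error for the 34 tested genes, for CypD KO minus WT at 21% oxygen and OE-labelled minus Control at 1% oxygen; filled points passed an adjusted p of 0.05. *Tyr* stands at 1.97 and -0.01 in the 2 comparisons, and *Trpm1* at -1.81 and -5.03.

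At 1% oxygen the OE-labelled libraries had lower levels of most pigment genes than Control, and *Mitf* was lower as well. In all, 23 of the 34 tested genes (67.6%) were lower in the OE-labelled libraries, against 18.3% of all genes tested, and 3 (8.82%) were higher, against 19.0%. The median log2 difference was -0.44 over the 34 genes and 0.002 over all genes tested. In either direction 37.4% of all genes passed.

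Among the 5 tested regulators and receptors, 3 were lower, 1 was higher and 1, *Mc1r*, did not pass. *Mitf* had 379 and 371 TPM in the Control pair against 203 and 190 TPM in the OE-labelled pair. Control was 1.91-fold higher, with no overlap of libraries (log2 difference -0.93, standard error 0.04, limma adjusted p = 1.86e-05). *Cited1* fell further, from 26.3 and 28.4 TPM to 8.56 and 8.06 TPM (-1.60, standard error 0.15, limma adjusted p = 3.72e-04), and *Pax3* by less, from 131 and 126 TPM to 108 and 111 TPM (-0.23, limma adjusted p = 0.00319). *Sox10* was the regulator that rose, from 238 and 236 TPM to 269 and 274 TPM (0.20, limma adjusted p = 0.00241). *Mc1r* had 55.0 and 58.0 TPM in the Control pair against 52.0 and 51.2 TPM in the OE-labelled pair (-0.13, limma adjusted p = 0.0647). It passed after the median-of-ratios rescaling (0.0488) and after rescaling to genes outside the 35 (0.0479).

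Among the 14 pigment enzyme and melanosome genes, 12 were lower, 0 were higher and 2 did not pass, by limma. At an unadjusted p under 0.05 the count of higher genes was also 0, with no share of all genes computed at that threshold. *Trpm1* fell from 374 and 348 TPM to 9.28 and 10.95 TPM, so that Control was 35.7-fold higher (log2 difference -5.03, standard error 0.09, limma adjusted p = 5.02e-07). *Oca2* (ENSMUSG00000030450; chromosome 7, 55889191 to 56186280) fell from 44.3 and 46.1 TPM to 1.69 and 1.17 TPM, with Control 31.6-fold higher (-4.26, standard error 0.12, limma adjusted p = 1.72e-06). *Slc24a4* fell from 7.52 and 8.57 TPM to 0.56 and 0.3 TPM (-2.66, standard error 0.20, limma adjusted p = 1.23e-04), and *Tspan10*, a tetraspanin gene, from 256 and 272 TPM to 72.5 and 74.1 TPM (-1.83, standard error 0.04, limma adjusted p = 8.85e-07). None of these 4 genes had overlapping libraries, though the share of all genes without overlap was not computed. The genes of the fibril protein and the enzymes had smaller differences. *Pmel* went from 3166 and 3403 TPM to 1749 and 1701 TPM (-0.93), *Tyrp1* from 10441 and 10632 TPM to 6327 and 6290 TPM (-0.74), and *Dct* from 4167 and 4243 TPM to 3102 and 2990 TPM (-0.47), with limma adjusted p-values from 1.52e-06 to 3.12e-05. *Slc45a2* and *Gpr143*, which encodes a melanosomal G protein-coupled receptor, were at 0.490 and 0.504 of the Control mean, and *Atp7a*, the gene of the pump that supplies copper to tyrosinase, was at 0.590 of it. *Slc24a5* and *Gpnmb* had differences of -0.41 and -0.28.

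*Tyr* and *Mlana* were the 2 genes of this group that did not pass. *Tyr* had 74.2 and 75.6 TPM in the Control pair against 74.1 and 74.9 TPM in the OE-labelled pair, with overlapping libraries (log2 difference -0.01, standard error 0.07, limma adjusted p = 0.950). *Mlana*, whose product takes part in melanosome maturation, had 1981 and 2023 TPM in the Control pair against 2034 and 2067 TPM in the OE-labelled pair (0.03, standard error 0.02, limma adjusted p = 0.286).

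**Figure D3:**
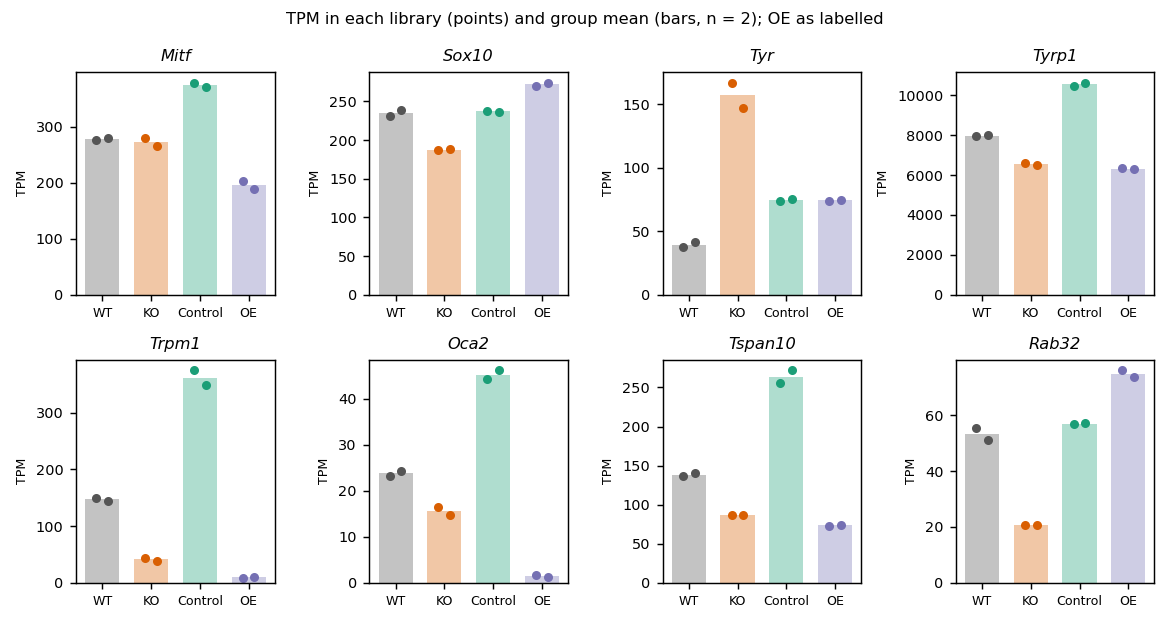
TPM of 8 of the genes in each library (points) and their group means (bars starting at 0, n = 2), from left to right in WT, CypD KO, Control and the OE-labelled libraries. *Mitf*, *Tyrp1*, *Trpm1*, *Oca2* and *Tspan10* are highest in Control, *Tyr* in CypD KO, and *Sox10* and *Rab32* in the OE-labelled libraries.

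Of the 15 trafficking genes, 8 were lower and 2 higher in the OE-labelled libraries than in Control, and 5 did not pass. *Rab27a*, the GTPase gene whose product recruits melanophilin to melanosomes, fell from 170 and 182 TPM to 74.0 and 77.2 TPM (log2 difference -1.21, standard error 0.04, limma adjusted p = 5.86e-06). *Myo5a*, the motor that *Mlph* links to it, fell from 462 and 449 TPM to 268 and 259 TPM (-0.78, limma adjusted p = 5.63e-05). *Mlph* itself was at 233 and 234 TPM and at 227 and 225 TPM (-0.05, limma adjusted p = 0.203). *Hps4*, *Rab38*, *Hps3* and *Ap3d1* were lower, with log2 differences of -0.92, -0.42, -0.41 and -0.35. *Hps4* had 17.2 and 18.6 TPM in the Control pair against 8.79 and 9.26 TPM in the OE-labelled pair, whereas *Hps1*, its partner in BLOC-3, had 9.85 and 8.31 TPM against 8.66 and 10.55 TPM and did not pass. *Hps5*, *Dtnbp1* and *Ap3b1* did not pass (-0.17, -0.14 and 0.02), though *Hps5* did without Control replicate 1 (-0.22, limma adjusted p = 0.0435). *Rab32* rose from 56.7 and 57.0 TPM to 76.0 and 73.6 TPM (0.39, limma adjusted p = 0.00151). *Bloc1s3* (-0.60), *Lyst* (-0.45), which encodes a regulator of lysosome and melanosome size, and *Hps6* (0.46) passed but did not keep their call without 1 library: *Bloc1s3* lost it without Control replicate 2 or OE-labelled replicate 2 (limma adjusted p = 0.0948 and 0.0904). *Lyst* lost it without Control replicate 2 (difference -0.28, limma adjusted p = 0.141) or either OE-labelled replicate (0.135 and 0.0767), and *Hps6* without any 1 of the 4 libraries (0.0673 to 0.194).

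The comparisons CypD KO minus WT and OE-labelled minus Control share no library, and 13 of the 34 tested genes were lower in both, against 541 (4.0%) of the 13526 genes tested. The 13 were *Cited1*, *Tyrp1*, *Dct*, *Pmel*, *Gpr143*, *Tspan10*, *Slc24a5*, *Slc24a4*, *Oca2*, *Trpm1*, *Rab27a*, *Rab38* and *Hps3*. *Gpnmb*, *Slc45a2* and *Bloc1s3* were higher in CypD KO and lower in the OE-labelled libraries (7.61% of all genes), while *Sox10* and *Rab32* were lower in CypD KO and higher in the OE-labelled libraries (5.13% of all genes). The difference between the changes was tested in the same fit, a contrast added after the values were seen, in which 46.2% of all genes passed. It was 1.98 for *Tyr* (standard error 0.10, limma adjusted p = 1.72e-05), 0.90 for *Mitf* (standard error 0.06, limma adjusted p = 6.20e-05) and 3.67 for *Oca2* (standard error 0.16, limma adjusted p = 1.02e-05). For *Rab32* it was -1.72 and for *Mlana* -0.57 (limma adjusted p = 8.89e-06 and 2.86e-05), both being lower in CypD KO. The changes of *Hps3* and *Mlph* differed by 0.03 and -0.01 (standard errors 0.07 and 0.04), which did not pass.

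Of the 8 genes with TCATGTG in a promoter, 5 were lower in both of these comparisons: *Tyrp1*, *Dct*, *Slc24a5*, *Trpm1* and *Tspan10*, whose log2 differences ranged from -0.19 to -1.81 in CypD KO and from -0.41 to -5.03 in the OE-labelled libraries. Among all 253 tested genes matched to a promoter with TCATGTG, 7.51% were lower in both, against 4.35% of the 9532 tested genes with any matched promoter. The 19 genes behind the 7.51% include the 5 just named, and no share was computed without them. *Tyr*, whose promoter holds the same letters, rose in CypD KO and did not pass in the OE-labelled libraries. *Mc1r* and *Hps1* hold them too and passed in neither comparison.

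Control libraries at 1% oxygen had higher levels of most pigment genes than WT libraries at 21% oxygen. This comparison shares its WT libraries with the first and its Control libraries with the second. In all, 25 (73.5%) were higher, against 12.1% of all genes tested, and 0 were lower by limma, against 12.1%. At an unadjusted p under 0.05 the count of lower genes was also 0, with no share of all genes computed at that threshold. The median log2 difference was 0.39 over the 34 genes and 0.01 over all genes tested. By group, 3 of the 5 tested regulators and receptors, 13 of the 14 pigment enzyme and melanosome genes and 9 of the 15 trafficking genes were higher. *Mitf* rose from 277 and 281 TPM to 379 and 371 TPM (0.43, standard error 0.04, limma adjusted p = 9.70e-04) and *Cited1* from 15.6 and 10.9 TPM to 26.3 and 28.4 TPM (1.01, standard error 0.15, limma adjusted p = 0.00481). *Sox10*, at 238 and 236 TPM in Control against 231 and 239 TPM in WT, did not pass (0.01, limma adjusted p = 0.774). *Trpm1* rose most, with a mean 2.45-fold that of WT (1.29, limma adjusted p = 2.64e-04), followed by *Cited1* at 2.06-fold, *Tspan10* at 1.91-fold, *Tyr* at 1.90-fold and *Oca2* at 1.90-fold. *Slc24a4* had a difference of 0.60 that did not pass (limma adjusted p = 0.0695; 0.0449 in a fit of only these 4 libraries). The calls of *Atp7a*, *Bloc1s3*, *Dtnbp1*, *Gpr143*, *Hps4* and *Lyst* were each lost without at least 1 of the 4 libraries, and the count of higher genes was between 19 and 22 when 1 library was left out.

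**Figure D4:**
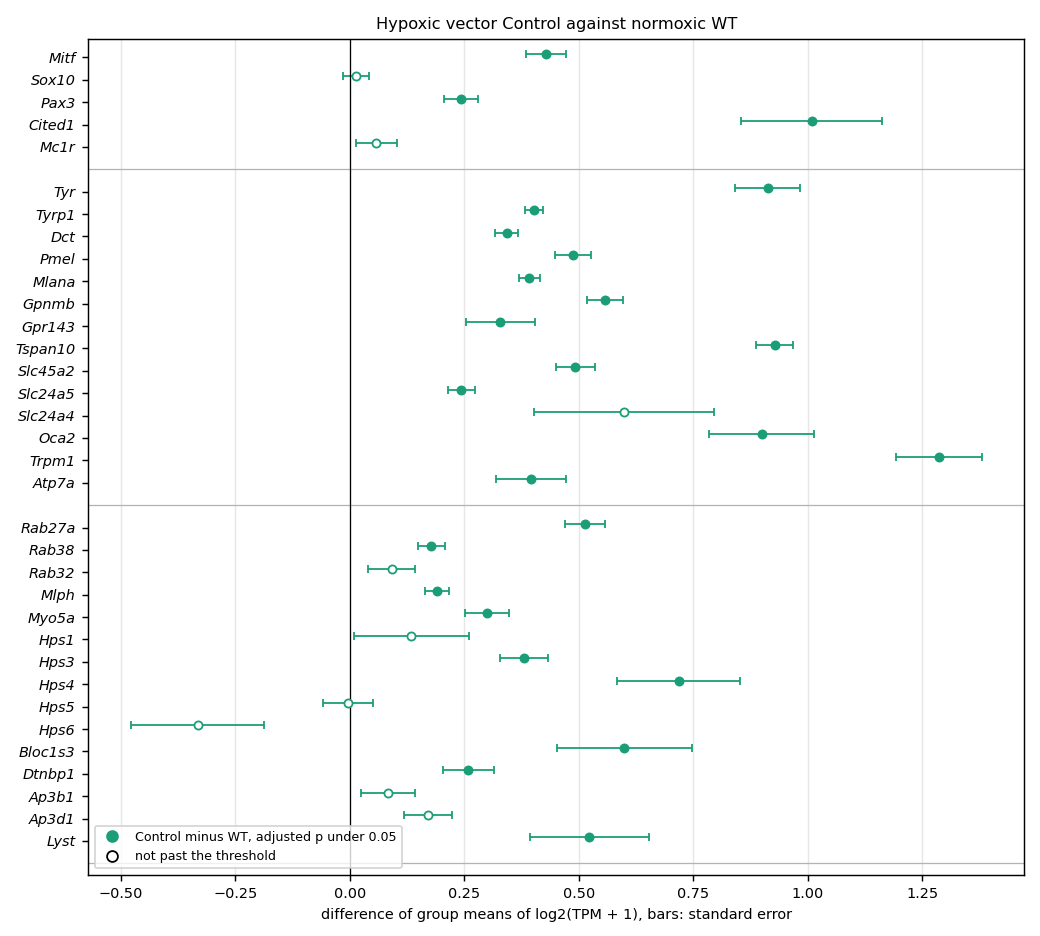
Difference of group means of log2(TPM + 1) with its standard error for the 34 tested genes, Control at 1% oxygen minus WT at 21% oxygen; filled points passed an adjusted p of 0.05. Values range from -0.33 for *Hps6* to 1.29 for *Trpm1*, and the 25 filled points are all above 0.

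Compared with WT rather than Control, the OE-labelled libraries were lower in 17 genes (50%, against 13.7% of all genes tested) and higher in 6 (17.6%, against 14.0%). This comparison shares libraries with the others, and oxygen and line cannot be told apart in it. *Mitf* was lower (-0.50, standard error 0.04, limma adjusted p = 4.88e-04), and *Trpm1* and *Oca2* were at a ratio to WT of 0.0686 and 0.0601 (limma adjusted p = 7.35e-06 and 2.10e-05). *Tyr* (0.91), *Mlana* (0.43), *Gpnmb* (0.27), *Sox10* (0.21), *Rab32* (0.48) and *Mlph* (0.14) were higher. Without a mean trend in the fit *Mlph* lost its call (limma adjusted p = 0.0628), and so did *Ap3d1*, *Atp7a*, *Cited1*, *Dct* and *Slc24a5*, which were lower, under at least 1 alternative each.

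The position of the genes was examined because *Oca2*, *Trpm1*, *Tyr* and *Rab38* lie on chromosome 7, as do *Hps5* and *Bloc1s3*. *Oca2* and *Trpm1* start 7.91 Mb apart, and *Tyr* and *Rab38* 0.937 Mb apart. In the OE-labelled libraries against Control, the 8 tested protein-coding genes starting within 5 Mb of *Oca2* had a median log2 difference of 0.03 and the 23 within 5 Mb of *Trpm1* of 0.23. Each of these neighbours was above the value of *Oca2* or *Trpm1* itself. *Trpm1* and *Oca2* had the lowest differences of the 34 tested genes here, so a place below their neighbours was likely from the outset. Around *Tyr* in CypD KO, the 24 neighbours had a median of -0.03, with 6 higher and 7 lower. Of these 24, *Prss23* at 2.44 was above *Tyr*, and *Nox4*, which starts at -0.247 Mb from *Tyr*, was at 1.86. Both were named after their values were seen. *Rab38*, on the other side of *Tyr*, was at -0.59.

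**Figure D5:**
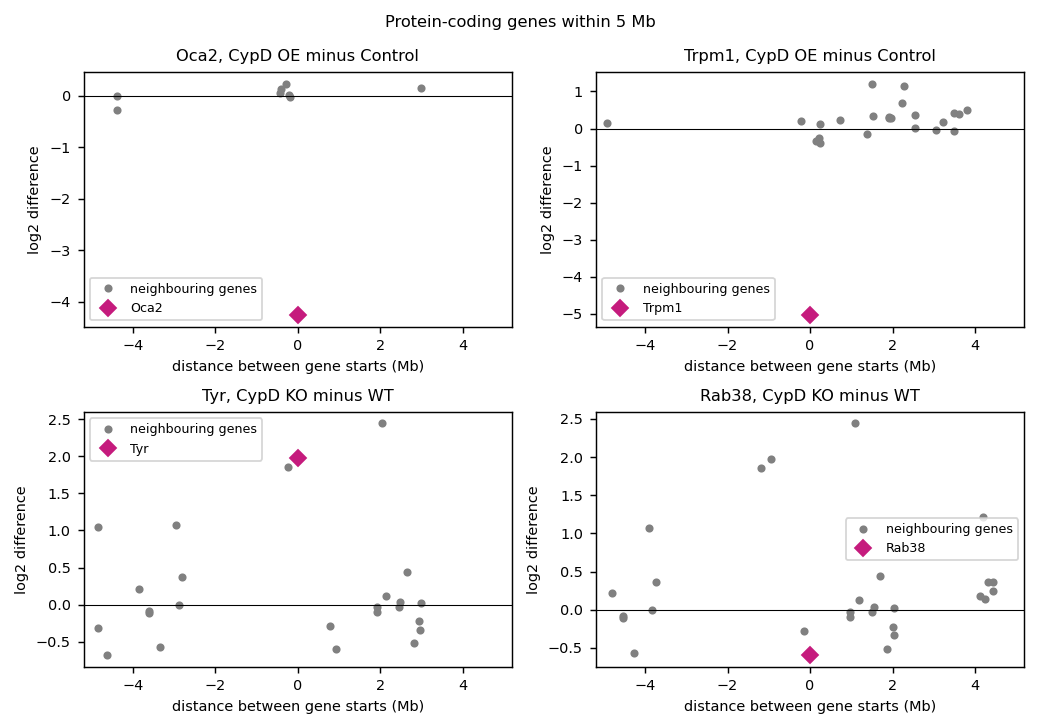
Log2 difference of the tested protein-coding genes within 5 Mb of *Oca2* and *Trpm1* (OE-labelled minus Control) and of *Tyr* and *Rab38* (CypD KO minus WT), against the distance between gene starts in Mb. *Oca2* (-4.26) and *Trpm1* (-5.03) lie below all of their neighbours.

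Other genes of the pathway were taken from lists compiled by hand. The shares of all genes tested given above, 18.4% lower and 30.1% higher in CypD KO and 18.3% lower and 19.0% higher in the OE-labelled libraries, hold beside each list. Of 14 tested regulators outside the 35 genes, 5 were lower (35.7%) and 4 higher (28.6%) in CypD KO, with *Kit*, the receptor for stem cell factor, at -1.98 (limma adjusted p = 4.19e-05) and *Snai2*, a neural crest transcription factor gene, at 1.95 (limma adjusted p = 9.49e-06). In the OE-labelled libraries, 4 were lower (28.6%) and 3 higher (21.4%) than in Control, with *Kit* at -1.41 (limma adjusted p = 3.04e-04) and *Snai2* at 0.85 (limma adjusted p = 5.06e-04). Of 10 further melanosome and pigment cell genes, 7 were lower (70%) and 2 higher (20%) in the OE-labelled libraries. *Slc7a11*, the cystine transporter gene whose loss dilutes yellow pigment, had 1.68 and 1.4 TPM in the Control pair against 31.0 and 28.8 TPM in the OE-labelled pair (3.61, limma adjusted p = 1.73e-06). *Ptgds* (-1.33) and *Bace2* (-1.09), which encodes a protease that cleaves PMEL, were among the lower genes. In CypD KO, 3 of these 10 were lower and 3 higher (30% each), led by *Tpcn2*, a melanosomal cation channel gene (1.02, limma adjusted p = 9.01e-04).

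Of 27 tested genes of the BLOC, AP, HOPS and motor machinery, 10 were higher (37.0%) and 2 lower (7.41%) in CypD KO, and 2 were higher (7.41%) and 7 lower (25.9%) in the OE-labelled libraries. The largest of these changes was that of *Sytl2*, whose product binds RAB27A, which fell from 196 and 185 TPM in Control to 23.8 and 23.6 TPM (-2.95, limma adjusted p = 8.66e-07). Of 17 tested MITF target genes with roles outside pigmentation, 10 were lower (58.8%) and 5 higher (29.4%) in the OE-labelled libraries, with *Ppargc1a*, a regulator of mitochondrial biogenesis, at -2.26 and *Met*, the receptor for hepatocyte growth factor, at -1.50 (limma adjusted p = 4.67e-06 and 3.27e-06). In CypD KO, 4 of the 17 were lower (23.5%) and 7 higher (41.2%), *Met* among the higher (0.75, limma adjusted p = 3.80e-05). *Sema6a*, of the same list, was called opposite to *Met* in both comparisons. It fell from 10.25 and 10.26 TPM in WT to 3.64 and 4 TPM in CypD KO. From Control to the OE-labelled libraries it rose from 6.36 and 6.14 TPM to 19.62 and 19.43 TPM. Of 8 tested genes of melanoma states with low MITF, 6 were higher (75%) and 1 lower (12.5%) in CypD KO, led by *Ccn2* (3.44), *Ccn1* (2.46) and *Axl* (2.43), a receptor tyrosine kinase gene, with limma adjusted p-values from 6.57e-07 to 2.15e-04. In the OE-labelled libraries, 5 of these 8 were higher (62.5%) and 2 lower (25%) than in Control, and *Axl* did not pass. Another 8 of this list, *Ngfr*, *Egfr* and *Wnt5a* among them, did not pass the filter on low TPM.

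Markers of keratinocytes and endothelial cells were low, while single immune, fibroblast and Schwann cell markers reached 23.33, 34.77 and 35.85 TPM. The 5 keratinocyte markers were listed at 0 in every library, no endothelial marker was above 1.18 TPM, and among immune markers *Cd3e* and *Adgre1* were at 0 in every library. *Cd68*, a lysosomal gene of macrophages, reached 23.3 TPM in CypD KO, and the summed immune markers were at 22.3 to 23.4 TPM there against 3.5 to 3.84 TPM in WT. The summed fibroblast markers were at 34.2 to 37.2 TPM in CypD KO, 15.6 to 17.7 TPM in WT, 19.0 to 21.0 TPM in Control and 9.23 to 11.4 TPM in the OE-labelled libraries, with *Dcn* at 0 throughout. Of these, *Postn* had 8.04 and 8.07 TPM in the WT pair against 34.8 and 31.2 TPM in the CypD KO pair (1.91, limma adjusted p = 9.47e-06), while *Col1a2* went the other way, from 9.03 and 6.87 TPM to 1.09 and 2.17 TPM (-1.79, limma adjusted p = 0.00176). *Col1a2* was also lower in the OE-labelled libraries than in Control (-1.54, limma adjusted p = 0.00482). The summed Schwann cell markers were between 35.7 and 49.0 TPM, most of it *Pmp22*. *Mbp*, a myelin gene, fell from 16.01 and 13.4 TPM in WT to 0.59 and 0.54 TPM in CypD KO (-3.32, limma adjusted p = 3.73e-06) and from 19.1 and 18.7 TPM in Control to 6.1 and 6.96 TPM in the OE-labelled libraries (-1.40, limma adjusted p = 1.99e-04). The part of these markers in the differences of the pigment genes was not tested.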

How the data were processed

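RNA-seq of total RNA depleted of ribosomal RNA was analysed for 8 B16F10 libraries, 2 in each of 4 groups taken from the sample labels. Per the submitters' processing notes and the study's methods, the tools were cutadapt 3.4, STAR 2.7.8a, RSEM 1.3.1 and DESeq2 1.26.0 on the mouse genome GRCm39. The authors deposited TPM per gene in 1 table, with 0 columns that belong to no sample. Because TPM has a fixed sum, a large change in abundant genes shifts all others, and read depth is lost.

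Genes that reached 1 TPM in 2 or more libraries were kept, log2(TPM + 1) was fitted with limma 3.58.1 (R 4.3.3; empirical Bayes with a mean trend) over all 8 libraries, and p-values were adjusted over all genes by the Benjamini-Hochberg procedure at 0.05. Simulated data with independent noise and few changed genes were also run through the fit. They do not mimic the many genes called here or possible technical replicates, so no conclusion is drawn from them. Alternatives were a pseudocount of 0.1, median-of-ratios rescaling, no filter, a minimum of 5 TPM, no trend, a replicate block, only the 4 libraries compared, and leaving out each library. A rescaling to genes outside the 35, and the contrast between the changes, were added after the values were seen. The 35 genes and all lists were chosen with earlier results of these data known. Members were all described, with values of each library for those with the largest changes and for the regulators; of each other list, up to 3 genes with the largest called changes in a comparison could be named. Python 3.11.15 was used for positions in GRCm39 (GENCODE M39), promoter motifs and plots.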

Additional observations from a re-analysis of the deposited data

How the results depend on the processing

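Of the genes called, 19 of 22 in CypD KO against WT, 23 of 26 in OE-labelled against Control, 19 of 25 in Control against WT and 17 of 23 in OE-labelled against WT kept their call under each of the 12 alternatives that tested them, and 0 changed direction. When 1 library was left out, the lone library of its group was assumed to vary like the others. The count of higher genes then ranged from 3 to 5 (3 without WT replicate 1) in CypD KO, was 2 in OE-labelled against Control, ranged from 19 to 22 in Control against WT and was 6 in OE-labelled against WT; that of lower genes ranged from 16 to 17, from 21 to 24, was 0 throughout, and ranged from 13 to 15 in the same order. With median-of-ratios rescaling 4 genes were higher and 21 lower in CypD KO.

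Differences that changed sign were all uncalled. In CypD KO, rescaling gave *Mc1r* -0.095, *Atp7a* -0.061, *Myo5a* -0.0012 and *Dtnbp1* -0.087, and leaving out 1 library gave ranges of -0.094 to 0.012 for *Ap3d1*, -0.04998 to 0.10 for *Dtnbp1*, -0.071 to 0.0083 for *Mitf*, -0.0059 to 0.0398 for *Mc1r* and -0.0047 to 0.34 for *Hps4*. In OE-labelled against Control the ranges were -0.021 to 0.0058 for *Tyr*, -0.057 to 0.20 for *Hps1* and -0.014 to 0.059 for *Ap3b1*. In Control against WT, rescaling gave *Sox10* -0.0076 and rescaling to genes outside the 35 gave *Hps5* 0.0061, with ranges of -0.0089 to 0.036 for *Sox10* and -0.059 to 0.051 for *Hps5*. In OE-labelled against WT, rescaling gave *Pax3* -0.015, with ranges of -0.0092 to 0.032 for *Pax3*, -0.077 to 0.069 for *Bloc1s3*, -0.078 to 0.028 for *Hps3* and -0.032 to 0.17 for *Lyst*.

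The replicate numbers were treated as shared numbers only: the deviations of same-numbered libraries correlated at 0.108, -0.00175, -0.0186 and -0.00932 in the 4 comparisons. With a replicate block, 5 genes were higher and 17 lower in CypD KO, 2 and 24 in OE-labelled against Control (*Hps6* 0.0625, *Hps5* 0.0435), 25 and 0 in Control against WT, and 6 and 16 in OE-labelled against WT, by limma. TPM gives no depth, so the precision of low values, such as those of *Slc24a4*, is not known from them.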
